A study of Mus musculus with 12 samples.

Results

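Mouse liver cancer lines grown from lymph node metastases were compared with lines grown from primary liver tumours while their mutated BRAF kinase was inhibited. The comparison rests on the 6 libraries labelled with PLX4720, a BRAF inhibitor, out of 12 in the series. Lines M1, M2 and M3 came from metastases and lines T1, T2 and T3 from primary tumours, and each gave 1 library after 48 h in 2 µM PLX4720. The labels give all 6 lines BRAF V600E and a p53 knockout. The design text of the series describes mice with hepatocyte-specific BRAF V600E and a deletion of Trp53 or Cdkn2a, so a line may derive from either. The remaining 6 libraries, from the same lines in DMSO, the solvent of the drug, were the reference for whether a difference between sites stayed, widened or narrowed under the inhibitor. The cell line was the replicate, 3 per site. Nothing in the labels says whether the lines came from separate animals, and 3 of them (T3, M2 and M3) share a number in their table names. The p-values therefore measure only the spread between these lines.

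BRAF passes growth signals from RAS to the kinases MEK and ERK, and the V600E form does so without an upstream signal. Drugs such as PLX4720 block that form, and genes that ERK drives directly, among them the phosphatase Dusp6 and the ETS factors Etv4 and Etv5, are used as its readout. A liver cell keeps its identity through transcription factors such as HNF4A and the FOXA family, and an epithelial cell through E-cadherin, desmosomes and keratins 8 and 18. Mesenchymal cells make fibrillar collagens and PDGF receptor beta and use factors such as ZEB1, TWIST2 and PRRX1. Of these, ZEB1 represses epithelial genes at the sequence CAGGTG. Interferons act through JAK kinases and STAT factors on genes that carry the interferon-stimulated response element, whose core reads GAAA, any 2 bases, then GAAA.

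The 6 PLX4720 libraries held 33500589 to 37326602 counted fragments and the 6 DMSO libraries 31992512 to 39288748. The share of mitochondrial genes was 3.67% in T3 under PLX4720 and 0.455% to 0.712% in the other 5 PLX4720 libraries. Levels below are CPM, counts scaled to library size and composition, and differences are fitted log2 values, metastasis minus primary.

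Markers of several cell types differed in level between the sites, and others overlapped. Summed over the 9 hepatocyte markers, the level was 936 to 1860 CPM in the primary lines and 1.03 to 4.59 CPM in the metastasis lines. Most of that sum was Apob, at 803, 1260 and 1560 CPM in T1, T2 and T3, and 3 of the 9 markers passed the filter on low counts. Albumin (Alb) was at 6.300, 0.136 and 15.8 CPM in the primary and 0 in each metastasis line, and apolipoprotein A1 (Apoa1) at 0.3398, 0.163 and 2.995 and 0.0274, 0 and 0.0291 CPM, so the primary lines too held little of these hepatocyte products. The 8 fibroblast and stellate cell markers summed to 2.12 to 28.2 CPM in the primary lines and to 3150 to 5330 CPM in the metastasis lines, and the 4 smooth muscle markers to 2.64 to 45.7 and 1740 to 3710 CPM. The 4 mesothelial markers, mostly Msln, summed to 563 to 789 CPM in the primary and 0.303 to 1.92 CPM in the metastasis lines. The 7 cholangiocyte and progenitor markers, of which Spp1 was a large part, overlapped, at 2010 to 3130 and 1210 to 2530 CPM. The 6 leukocyte markers summed to 1.52 to 2.86 CPM in the primary and 1.57 to 2.33 CPM in the metastasis lines. Of the 5 lymph node stroma markers, Ccl19 and Ccl21a were at 0 in all 6 libraries, and Pdpn, which many cell types express, made up most of the sum of 23.7 to 56.4 CPM in the metastasis lines. In bulk RNA, fewer cells of a type and less RNA per cell cannot be told apart, and the part of such markers in the results below was not tested.

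How large the gap was under PLX4720 was asked first. Of 15276 genes tested, 2061 (13.5%) passed an adjusted p of 0.05 in edgeR's quasi-likelihood test. Of these, 858 (5.62%) were higher in the metastasis lines and 1203 (7.88%) were lower. A difference shown to exceed 2-fold was called for 1206 genes (7.89%), of which 431 (2.82%) were higher and 775 (5.07%) lower. The genes lower in the metastasis lines had the larger differences, with a median log2 size of 4.69 against 3.4 for the genes that were higher. Many stood near silence at one site: 271 of the 1203 lower genes and 117 of the 858 higher genes had at most 3 fragments over the 3 lines of the lower site. Levels did not overlap between the sites for 5305 genes (34.7%), among them all 2061 called genes. For a called gene, a statement below that the sites did not overlap thus adds nothing to the call. For any other gene it is to be read against that share. Leaving out 1 line at a time left 827 of the 2061 calls (40.1%) past the threshold in all 6 fits. A gene named below as different between the sites is among these unless the line that decides it is given.

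The lines stood apart as 2 sets under the inhibitor. The root mean square difference of log2(CPM + 1) over the genes tested was 1.43 to 1.52 for the 9 pairs of a metastasis with a primary line under PLX4720. Pairs within a site lay at 0.734 to 0.901 among metastasis lines and 0.783 to 0.872 among primary lines. A line under PLX4720 stood 0.326 to 0.564 from its own DMSO library, less than any distance between 2 lines. All 9 pairs across sites were farther apart under PLX4720 than under DMSO, where they lay at 1.33 to 1.44, by 0.047 to 0.129. No test was run on these distances, since 3 lines against 3 cannot go below p = 0.1 in an exact permutation test.

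**Figure D1:**
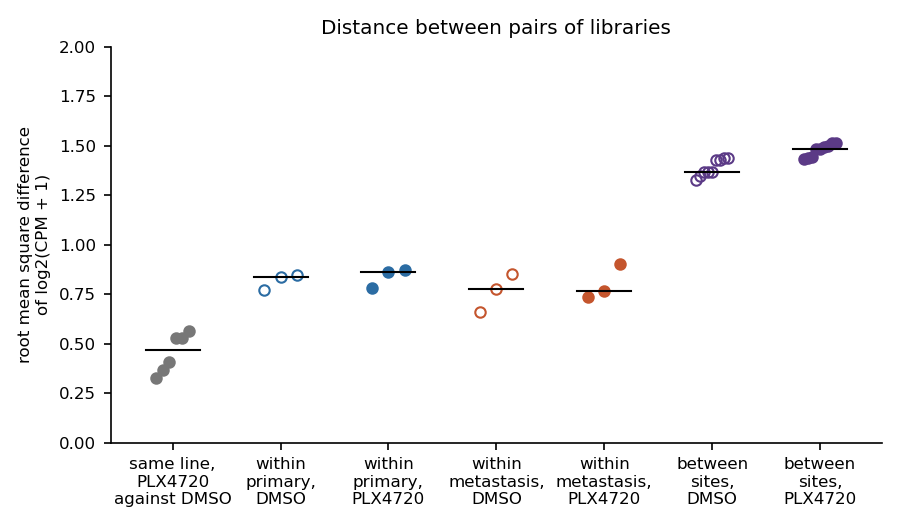
Root mean square difference in log2(CPM + 1) over the genes tested for each pair of libraries, with pairs across sites, pairs within a site and the 2 libraries of a line shown as separate sets of points. Pairs across sites lie between 1.43 and 1.52 under PLX4720 and between 1.33 and 1.44 under DMSO, above all pairs within a site.

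Most genes called under DMSO were also called under PLX4720. The DMSO libraries gave 1819 calls (12.1% of 14992 genes), of which 696 (4.64%) were higher and 1123 (7.49%) lower in the metastasis lines. Both treatments called 1391 genes, 67.5% of the PLX4720 calls and 76.5% of the DMSO calls, and all 1391 in the same direction. The same 6 lines enter both comparisons, so this overlap is a description. Over the 14622 genes tested under both treatments, the median size of the gap was log2 0.464 under PLX4720 and 0.435 under DMSO.

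Whether a gap changed was tested on the difference itself. In a fit of all 12 libraries with the cell line as a block, the gap under PLX4720 differed from that under DMSO for 487 of 16555 genes (2.94%), upward for 306 (1.85%) and downward for 181 (1.09%). By the fitted gaps, 209 of these genes widened, 159 narrowed and 119 turned, meaning that the sign of the fitted gap changed. A called gap under PLX4720 was held by 114 of the 209 widened and 35 of the 159 narrowed genes. Under DMSO, 35 and 81 of them had a called gap. These classes thus describe fitted gaps, many of which were not called themselves. Of the 119, 8 had a called gap under PLX4720 and 5 under DMSO. For most of them neither gap was called, so a change of sign was not shown. The change was larger in the metastasis lines for 168 of the 209 widened, 146 of the 159 narrowed and 101 of the 119 turned genes. PLX4720 moved the metastasis lines alone past the threshold for 143 widened and 114 narrowed genes, and the primary lines alone for 29 and 6. With 1 line left out at a time, 84 of the 487 calls (17.2%) held in all 6 fits, and a change named below is among them unless the deciding lines are given. The 487 calls need the block by line: without it, no gene passed an adjusted p of 0.05, and 279 had an unadjusted p under 0.05.

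Among the genes called under both treatments with no called change, 419 had a 95% interval of the change within 1 log2 unit either way and are termed kept. For 902 the interval was wider, and 658 of these (72.9%) had under 30 fragments in at least 1 of the 4 groups of site and treatment, against 12 of the 419 kept genes. They are termed undecided: the site difference was called under both treatments, but its constancy could not be shown. The median gap was log2 1.9 in size for kept genes and 6.92 for undecided ones.

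**Figure D2:**
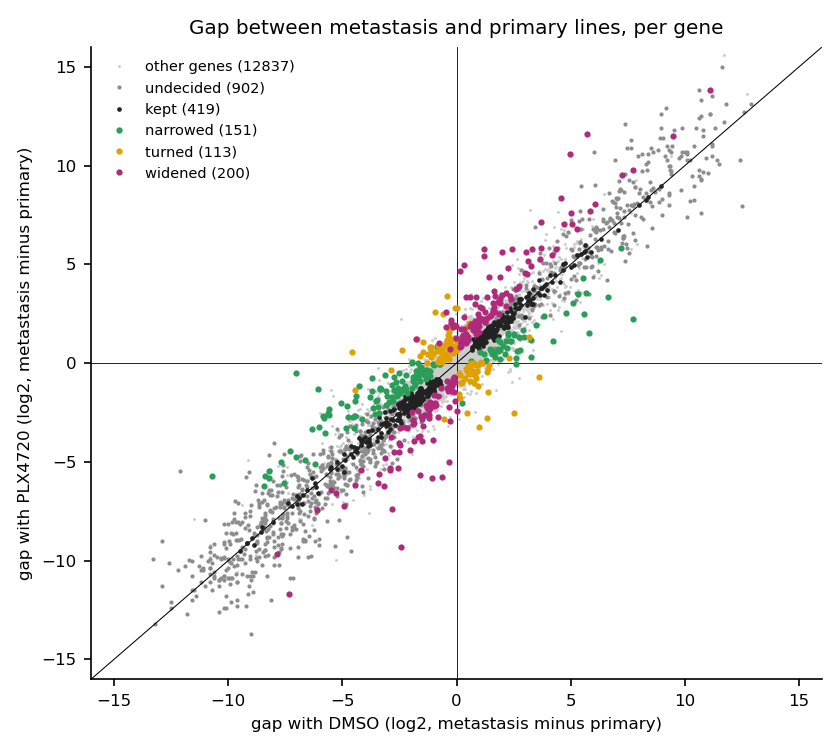
Each point is a gene tested under both treatments, with its fitted log2 gap (metastasis minus primary) under DMSO on the x axis and under PLX4720 on the y axis, coloured by whether the gap was kept, widened, narrowed or turned. Most points lie along the diagonal, and the coloured points off it are the genes whose gap differed between treatments.

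Across the gene groups, the gap ran in opposite directions for epithelial and interferon response genes. None of 29 epithelial genes tested was called higher in the metastasis lines and 23 were called lower, while 24 of 38 interferon response genes were higher and none lower, beside 5.62% higher and 7.88% lower over all genes tested. For the liver factor, epithelial, EMT, contractile, interferon and antigen presentation lists, the direction with 0 calls also had no gene at an unadjusted p under 0.05 and none by DESeq2. In the difference between treatments, 15 of 39 interferon response genes and 7 of 26 collagens were called upward, beside 1.85% over all genes. The counts given for other lists below are to be read against the same shares, with 1.09% for downward changes. A member near 0 at 1 site passes the filter on low counts through the other site alone, which fixes its direction. The list counts are therefore a description.

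**Figure D3:**
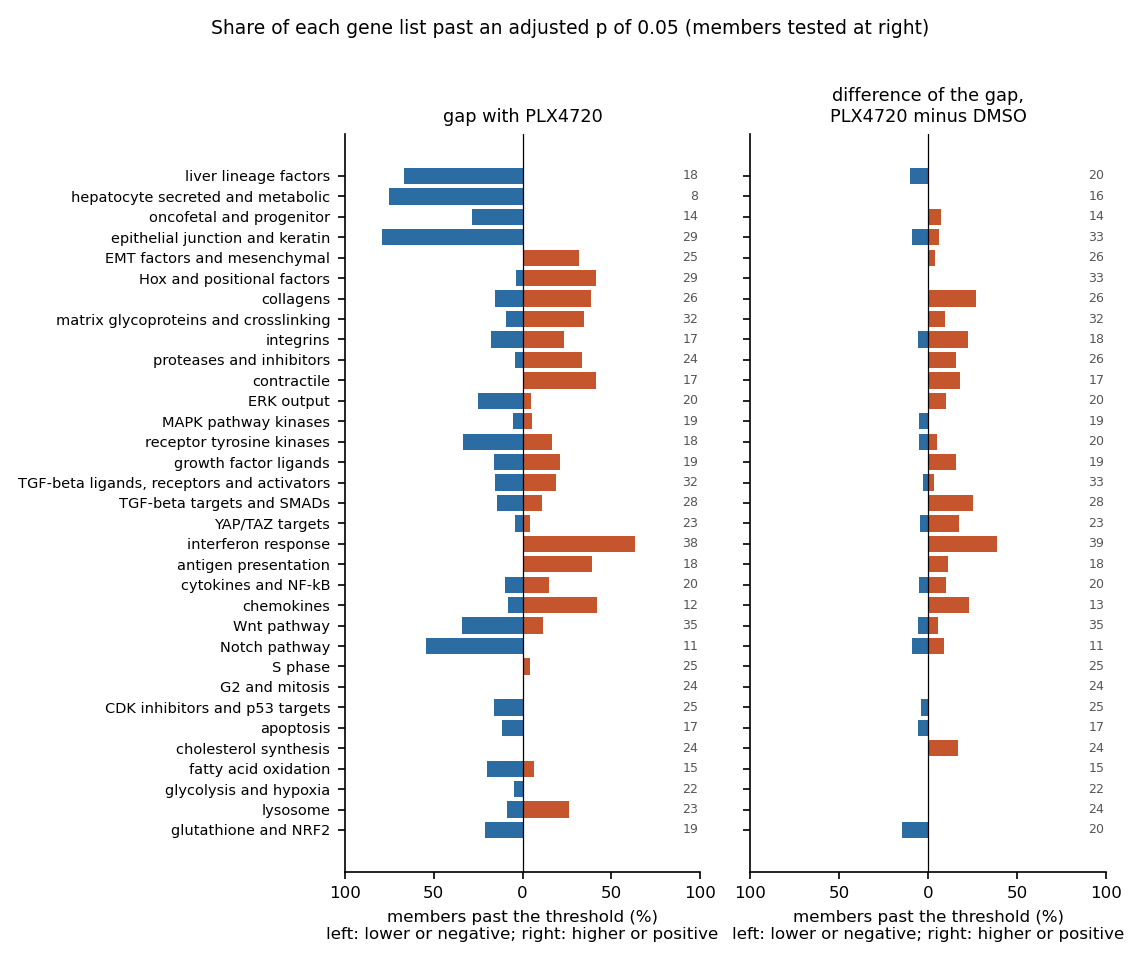
For 33 gene lists, the share of tested members called higher or lower in the metastasis lines under PLX4720 (left) and the share whose gap was called larger or smaller in value under PLX4720 than under DMSO (right), with the number tested at the right. The epithelial list reaches 23 of 29 lower on the left, and the interferon list 15 of 39 upward on the right.

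Most liver lineage factors tested were lower in the metastasis lines. Hnf4a (chr2:163506808-163572910, GRCm38), the nuclear receptor at the head of the hepatocyte programme, stood at 121, 172 and 266 CPM in T1, T2 and T3 and at 0.0822, 0.121 and 0 CPM in M1, M2 and M3. Every primary line lay far above every metastasis line, with log2 -11.33 ± 0.78 (SE, adjusted p = 0.000925).

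The pioneer factors that open liver chromatin followed. Foxa1, Foxa2 and Foxa3 were each at 6.18 CPM or above in the primary lines and at 0.137 CPM or below in the metastasis lines (log2 -10.27, -9.94 and -9.72, adjusted p = 0.00142, 0.00316 and 0.00314). Onecut2, a factor of the liver bud, stood at 54.1, 50.2 and 79.6 CPM against 0, 0.09097 and 0.0291 CPM (log2 -10.47 ± 0.78 (SE, adjusted p = 0.00114)). Of 23 liver lineage factors, 18 passed the filter, and 12 of these were lower in the metastasis lines and none higher, with a median of log2 -6.94 beside 0.03 over all genes. These lower calls stand beside 7.88% over all genes, and leaving out 1 line gave 11 or 12. Some, such as Hnf4a and Onecut2, passed the filter through their level in the primary lines alone, so this count is a description. Others were expressed at both sites: Cebpa stood at 2.56, 14.1 and 14.2 CPM in the primary and 53.2, 25.4 and 5.15 CPM in the metastasis lines (log2 1.45, adjusted p = 0.375). None of the 12 lower genes met the criterion for a kept gap, so constancy between treatments was not shown.

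Of the secreted and metabolic products of hepatocytes, few were expressed at either site. Apob, the protein shell of liver lipoproteins, stood at 803, 1260 and 1560 CPM in the primary and 1.51, 0.9097 and 4.54 CPM in the metastasis lines, again without overlap (log2 -8.99 ± 0.82 (SE, adjusted p = 0.00206)). The haem carrier hemopexin (Hpx) stood at 16.02, 22.7 and 9.09 against 0.438, 0.273 and 0.582 CPM (log2 -5.17 ± 0.56 (SE, adjusted p = 0.00353)), and transferrin (Trf), the iron carrier, at 8.103, 5.42 and 29.5 against 0, 0.0303 and 0 CPM (log2 -10.07 ± 1.29 (SE, adjusted p = 0.00618)). Only 8 of 32 secreted and metabolic hepatocyte genes passed the filter, and Fga, Fgg, Cyp7a1 and Fbp1 had no fragment in any PLX4720 library. Of the 8, 6 were called lower, and 3 to 7 when 1 line was left out. Some, such as Trf and Ambp, passed through their level in the primary lines alone, so this count is a description. PLX4720 raised Apob within the metastasis lines by log2 1.30 (adjusted p = 0.00293), yet the level there stayed at 4.54 CPM or below.

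Epithelial genes were lower in the metastasis lines over most of the list. Krt8 (chr15:101996711-102004342) and Krt18 (chr15:102028216-102032026) encode the paired keratins of simple epithelia. Krt8 stood at 2693, 2232 and 3136 CPM in the primary and 2.25, 1.58 and 0.6398 CPM in the metastasis lines (log2 -10.79 ± 0.63 (SE, adjusted p = 0.00051)). Krt18 stood at 1898, 1851 and 2770 against 1.48, 1.27 and 1.13 CPM (log2 -10.68 ± 0.36 (SE, adjusted p = 0.00013)). For both keratins every primary line lay far above every metastasis line. Cdh1, E-cadherin, stood at 756, 536 and 748 CPM against 0.739, 0.273 and 0 CPM (log2 -10.93 ± 1.13 (SE, adjusted p = 0.00302)).

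Junctions and their regulators showed the same split. Desmoplakin (Dsp), which anchors keratin to desmosomes, stood at 508, 430.3 and 902 against 0.685, 0.152 and 0.0872 CPM (log2 -10.91 ± 0.91 (SE, adjusted p = 0.00152)), and the tight junction gene Cldn3 at 9.36, 46.2 and 6.71 against 0.0274, 0 and 0 CPM (log2 -10.61 ± 1.39 (SE, adjusted p = 0.0064)). Esrp2, a splicing factor that keeps epithelial isoforms, was at 41.4 to 44.9 CPM in the primary and 0.0274 to 0.243 CPM in the metastasis lines. Plakoglobin (Jup), shared by adherens junctions and desmosomes, was retained at 37.9, 22.3 and 8.09 CPM in the metastasis lines, below 270.0, 336 and 386 CPM in the primary lines, and its gap was kept (log2 -3.84 under PLX4720 and -3.84 under DMSO). Over the list, 23 of 29 tested genes were lower in the metastasis lines under PLX4720, with a median of log2 -7.15, and 23 under DMSO. When 1 line was left out, 19 to 24 genes were called. Members such as Cldn3 passed the filter through the primary lines alone, so these counts are a description.

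The promoters of 2 of these genes are printed because their windows carry CAGGTG, the sequence that ZEB and SNAI factors bind. Each line gives the 250 bases before the RefSeq start of the gene (GRCm38.p6), 5′ to 3′ along the gene's strand, with CAGGTG or its reverse complement CACCTG in capitals. Epcam lies on the plus strand, with the window at chr17:87635729-87635978 and matches beginning 187 and 19 bases before the start. Lsr lies on the minus strand, with the window at chr7:30973470-30973719 and matches 249, 219, 151 and 69 bases before the start.
Epcam: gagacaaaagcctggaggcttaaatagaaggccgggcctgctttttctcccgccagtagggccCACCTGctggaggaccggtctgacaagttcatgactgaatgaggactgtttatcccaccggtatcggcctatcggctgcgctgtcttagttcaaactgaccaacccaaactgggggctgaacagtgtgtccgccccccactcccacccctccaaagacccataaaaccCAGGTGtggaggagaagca
Lsr: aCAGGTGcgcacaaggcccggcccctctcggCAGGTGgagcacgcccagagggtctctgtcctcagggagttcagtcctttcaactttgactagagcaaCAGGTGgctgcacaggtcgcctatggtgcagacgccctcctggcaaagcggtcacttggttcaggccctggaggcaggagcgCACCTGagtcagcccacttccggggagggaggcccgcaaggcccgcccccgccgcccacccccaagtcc

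Epcam, an epithelial adhesion molecule, stood at 3.66, 4.44 and 1.52 CPM in the primary and 0.0274, 0 and 0.0291 CPM in the metastasis lines (log2 -7.13 ± 0.86 (SE, adjusted p = 0.00502)). Lsr, a receptor of tricellular tight junctions, stood at 98.5, 118 and 68.9 against 0.822, 1.001 and 0.3199 CPM (log2 -7.02 ± 0.53 (SE, adjusted p = 0.00119)). In windows from 250 bases before to 50 bases after the start, CAGGTG on either strand was found for 19 of 26 epithelial list genes with a promoter in the table (73.1%) and for 14 of the 17 of them called lower (82.4%). It was found for 6098 of 27025 genes in all (22.6%), 5 of 27 interferon response genes, 3 of 21 collagens and 0 of 26 Hox and positional genes. The motif was chosen after the values of the lists were known, and a match is a description of the letters, not a bound site.

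The cell surface proteins Msln, Tspan8, Cxadr and Tm4sf4 were lower in the metastasis lines, while others such as Pdgfrb, given below, were higher. Msln (chr17:25748614-25754327), mesothelin, found on mesothelium and on several carcinomas, stood at 781, 558 and 600.4 CPM against 1.15, 0.273 and 1.803 CPM (log2 -9.20 ± 0.77 (SE, adjusted p = 0.00152)), and its gap was kept, with a change between treatments of log2 -0.29 (95% interval -0.88 to 0.30). The tetraspanin Tspan8 stood at 522, 363 and 315 against 0.575, 0.273 and 0.291 CPM (log2 -10.00 ± 0.46 (SE, adjusted p = 0.000251)). The cell adhesion receptor Cxadr, at 361, 293 and 575 against 4.38, 1.27 and 3.02 CPM, also kept its gap (log2 -7.12 ± 0.59 (SE, adjusted p = 0.00152)). Tm4sf4, a tetraspan protein of liver and gut, stood at 1004, 746 and 629.7 against 1.45, 0.607 and 0.785 CPM (log2 -9.68 ± 0.49 (SE, adjusted p = 0.000354)). Its gap was called wider under PLX4720 (log2 -1.74 ± 0.33 (SE, adjusted p = 0.03)), a call lost without T1, T2, T3 or M3.

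Several mesenchymal factors were higher in the metastasis lines. Prrx1 (chr1:163245119-163313710), a homeobox factor of limb and connective tissue mesenchyme, stood at 0.157, 0.218 and 2.19 CPM in T1, T2 and T3 and 244, 217 and 185 CPM in M1, M2 and M3 (log2 7.99 ± 1.14 (SE, adjusted p = 0.00787)). The gap in Prrx1 was kept, with a change between treatments of log2 0.10 (95% interval -0.71 to 0.90). Twist2 stood at 1.44, 1.23 and 0.802 against 57.01, 16.3 and 33.9 CPM (log2 4.96 ± 0.57 (SE, adjusted p = 0.00428)) and Foxc2, another mesenchymal factor, at 0, 0 and 0.0267 against 14.1, 24.7 and 23.03 CPM (log2 10.73 ± 0.87 (SE, adjusted p = 0.0014)). Zeb1 was expressed at both sites, at 45.5, 32.8 and 42.2 CPM in the primary and 111, 84.8 and 109.8 CPM in the metastasis lines (log2 1.37 ± 0.21 (SE, adjusted p = 0.0103)), and its gap was kept.

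Several textbook EMT genes did not pass the test. Snai1 stood at 0.366, 0.599 and 4.25 CPM in the primary and 28.1, 22.5 and 11.7 CPM in the metastasis lines (log2 3.60, adjusted p = 0.0663), and Snai2 at 1.54, 0.708 and 6.63 against 29.98, 45.2 and 17.5 CPM (log2 3.41, adjusted p = 0.0537). In both genes T3 was the highest primary line, below every metastasis line. Vimentin (Vim) was high everywhere, at 1635 to 3485 CPM against 4368 to 5744 CPM (log2 1.16, adjusted p = 0.0757). N-cadherin (Cdh2) had overlapping levels, 190.4 to 274 against 82.3 to 206 CPM (log2 -0.67, adjusted p = 0.267). Of 25 EMT and mesenchymal genes tested, 8 were higher in the metastasis lines and none lower, with a median of log2 3.41. The higher calls numbered 6 to 13 with 1 line left out.

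Positional factors, which record where in the body a mesenchymal cell arose, were mostly higher in the metastasis lines where called. Hoxc8 (chr15:102990607-102994111) stood at 0.0523, 0 and 0.241 CPM in the primary and 25.3, 21.2 and 36.6 CPM in the metastasis lines (log2 8.12 ± 1.08 (SE, adjusted p = 0.00684)). Hoxd8 stood at 0.209, 0.0272 and 0 against 88.3, 30.7 and 35.04 CPM (log2 9.29 ± 1.15 (SE, adjusted p = 0.00531)), and Tbx15, a T-box factor of trunk mesenchyme, at 12.9, 6.401 and 5.75 against 138, 59.8 and 252 CPM (log2 4.19 ± 0.64 (SE, adjusted p = 0.00952)). The gap in Tbx15 was kept, while for Hoxc8 and Hoxd8 the interval of the change was too wide to tell. Of 29 Hox and positional factors tested, 12 were higher and 1, Hoxa10, was lower in the metastasis lines, the last a call (adjusted p = 0.0442) lost without T1, T3, M1, M2 or M3. No member of the list was called in the difference between treatments by edgeR or DESeq2, and 1 of 33 had an unadjusted p under 0.05. There were 7 to 12 higher calls with 1 line left out. Members such as Hoxc8 and Hoxd8 passed the filter through the metastasis lines alone, so these counts are a description.

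**Figure D4:**
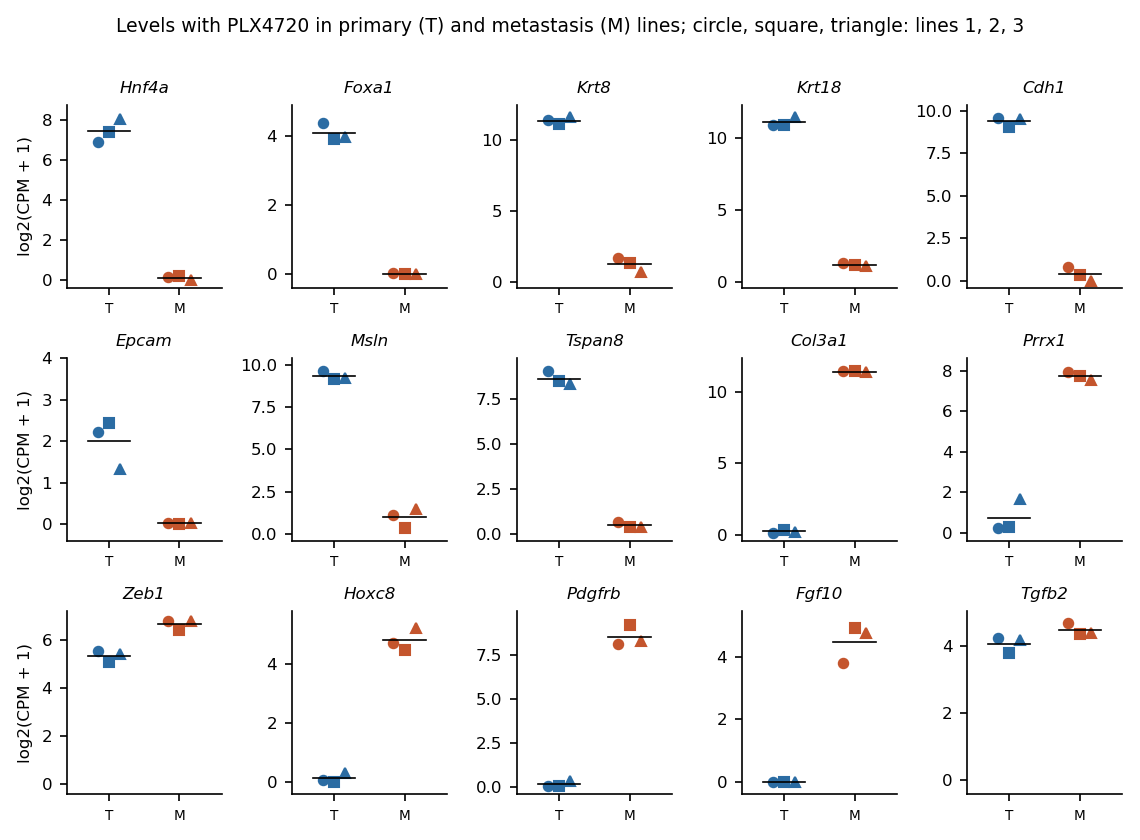
Level under PLX4720, log2(CPM + 1), of 15 identity genes in each primary line (T1 to T3) and metastasis line (M1 to M3), 1 panel per gene, with a bar at the mean of each site. Hnf4a stands near 0 in all 3 metastasis lines, and Col3a1, Hoxc8, Pdgfrb and Fgf10 near 0 in all 3 primary lines, while Tgfb2 lies between 12.8 and 24.9 CPM in all 6.

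Some receptors for growth signals differed between the sites, in both directions. Pdgfrb, PDGF receptor beta, stood at 0.0261, 0.0545 and 0.241 CPM in the primary and 275, 595 and 314 CPM in the metastasis lines (log2 11.84 ± 0.84 (SE, adjusted p = 0.000977)), and Ddr2, a receptor for fibrillar collagen, at 0.0523, 0.517 and 0.936 against 353, 466 and 412 CPM (log2 9.70 ± 0.93 (SE, adjusted p = 0.00237)). The epithelial collagen receptor Ddr1 was on the other side, at 149, 266 and 203 against 60.2, 39.1 and 35.9 CPM (log2 -2.17 ± 0.30 (SE, adjusted p = 0.00754)), and its gap was kept. Fgfr4, the hepatocyte FGF receptor, stood at 44.8, 21.4 and 7.25 against 0.0548, 0.0303 and 0.0291 CPM (log2 -9.17 ± 0.96 (SE, adjusted p = 0.00304)), and Erbb3, a receptor for neuregulins, at 12.4, 35.6 and 8.77 against 0.219, 0.09097 and 0.0291 CPM (log2 -7.31 ± 0.97 (SE, adjusted p = 0.00669)). Of 18 receptor tyrosine kinases tested, 3 were higher and 6 lower in the metastasis lines. Met, the receptor of hepatocyte growth factor, was at 284 to 412 CPM in the primary and 224 to 252 CPM in the metastasis lines (log2 -0.58, adjusted p = 0.121).

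Growth factor ligands had called gaps in both directions, with 4 of 19 higher and 3 lower in the metastasis lines and a median of log2 -0.46. Fgf10, which is not on that list, had no fragment in any primary line under PLX4720 or DMSO and stood at 12.98, 29.7 and 26.7 CPM in M1, M2 and M3, at least 855-fold higher when 3 fragments are taken as the floor for the site. Fgf7, keratinocyte growth factor, stood at 0.0523, 0.136 and 0.107 CPM in the primary and 171, 196 and 141 CPM in the metastasis lines (log2 10.73 ± 0.39 (SE, adjusted p = 0.00013)). Tgfa, an activator of the EGF receptor, was higher in the primary lines, at 54.3, 36.7 and 54.7 CPM against 0.192, 0.121 and 0.0872 CPM (log2 -8.44 ± 0.44 (SE, adjusted p = 0.000354)), and Fgf1 at 51.4, 29.6 and 24.6 against 0.411, 0.819 and 0.465 CPM (log2 -5.92 ± 0.52 (SE, adjusted p = 0.00178)). Pdgfb, a ligand of PDGF receptor beta, was at 42.2, 99.01 and 131 CPM in the primary lines and 1.15, 0.515 and 1.105 CPM in the metastasis lines (log2 -6.59 ± 0.60 (SE, adjusted p = 0.00206)), the opposite side from its receptor.

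Genes of the Notch and Wnt pathways were also called. Jag2, a Notch ligand, stood at 46.95, 36.2 and 36.5 CPM in the primary and 0.137, 0.243 and 0.6398 CPM in the metastasis lines (log2 -6.83 ± 0.66 (SE, adjusted p = 0.00242)), with its gap kept. By edgeR, 6 of 11 Notch pathway genes were lower in the metastasis lines and none higher (4 or 5 lower with 1 line left out). In the higher direction, 1 had an unadjusted p under 0.05, DESeq2 called 1, and edgeR called 1 without M3. Wnt7a, an epithelial Wnt ligand, stood at 21.5, 23.9 and 12.7 CPM in the primary lines and had no fragment in the metastasis lines, at least 671-fold lower. The Wnt receptor Fzd8 was on the other side, at 0.549, 0.163 and 0.508 against 31.4, 44.6 and 30.6 CPM (log2 6.46 ± 0.57 (SE, adjusted p = 0.00185)). Of 35 Wnt pathway genes tested, 4 were higher and 12 lower, and leaving out 1 line gave 2 to 9 lower calls, so that this count rests on single lines. The alarmin receptor Il1rl1, which binds IL-33, stood at 0.183, 0.817 and 1.497 CPM in the primary and 355, 181 and 224 CPM in the metastasis lines (log2 8.27 ± 0.82 (SE, adjusted p = 0.00268)), and Igfbp6, which binds IGF-II, at 0.183, 2.02 and 0.588 against 514, 199 and 220.5 CPM (log2 8.41 ± 1.03 (SE, adjusted p = 0.00517)). Both gaps were kept.

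Some metabolic and lysosomal genes kept a smaller gap with little spread between lines. Malic enzyme (Me1), which makes NADPH, stood at 494, 586 and 486 CPM in the primary and 113, 109 and 107 CPM in the metastasis lines (log2 -2.22 ± 0.17 (SE, adjusted p = 0.00125)). The lysosomal cholesterol carrier Npc2 was higher in the metastasis lines, at 422, 387 and 673 CPM against 109, 109.9 and 101 CPM (log2 2.24 ± 0.27 (SE, adjusted p = 0.00477)), as was the lysosomal protease cathepsin L (Ctsl), at 1133, 682 and 1236 against 253, 262 and 351 CPM (log2 1.84 ± 0.29 (SE, adjusted p = 0.0105)). Ctsl fell under PLX4720 at both sites, by log2 -0.77 in the primary lines (adjusted p = 0.0107) and -1.19 in the metastasis lines (adjusted p = 0.000316), and its gap was kept. Of 23 lysosomal genes tested, 6 were higher and 2 lower in the metastasis lines, with 3 or 4 higher calls when 1 line was left out.

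Some matrix genes had a called gap under both treatments, and for some of them it widened. Col3a1 (chr1:45311538-45349706), a fibrillar collagen of soft tissue, stood at 0.105, 0.2996 and 0.187 CPM in the primary and 2754, 2840 and 2609 CPM in the metastasis lines under PLX4720 (log2 13.77 ± 0.49 (SE, adjusted p = 0.00013)). Under DMSO it stood at 0.334, 2.03 and 0.101 and 1363, 2220 and 1679 CPM. Every metastasis line was higher under PLX4720 than under DMSO. The primary lines were near the floor, where T1 and T2 were lower under PLX4720, T2 from 2.03 to 0.2996 CPM, and T3 was higher. The call that the gap widened (log2 2.56 ± 0.56 (SE, adjusted p = 0.0476)) was lost without T1, T2, M2 or M3, with adjusted p = 0.0724 to 0.675, the highest without T2. With 1 line left out the change was log2 1.15 to 3.12, so its size rests in part on these low counts. Col1a2, the second chain of type I collagen, was at 0 to 0.241 CPM in the primary lines and 1650 to 6867 CPM in the metastasis lines (log2 14.96 ± 1.29 (SE, adjusted p = 0.0017)), and the change in its gap was not called (log2 3.32, adjusted p = 0.0649).

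The first chain, Col1a1 (chr11:94936224-94953042), moved with the inhibitor. It stood at 0.784, 1.17 and 5.08 CPM in the primary and 549, 639 and 179 CPM in the metastasis lines under PLX4720, and at 0.529, 0.684 and 1.99 and 63.9, 32.4 and 4.995 CPM under DMSO. All 3 metastasis lines rose, M3 from the lowest level, and the gap was log2 7.62 ± 1.02 (SE, adjusted p = 0.00694) under PLX4720. The widening (log2 3.10 ± 0.58 (SE, adjusted p = 0.0278)) was lost without T1, T2, T3 or M2 (adjusted p = 0.0835 to 0.111). Col5a1, which starts collagen fibrils, widened whichever line was left out: 14.2, 36.2 and 62.7 against 836, 834 and 882 CPM under PLX4720, 11.00, 33.3 and 65.5 against 362, 294 and 278 CPM under DMSO, a change of log2 1.32 ± 0.16 (SE, adjusted p = 0.00737).

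Col11a1, a collagen of cartilage and of tumour stroma, stood at 89.9, 375 and 86.7 CPM in the metastasis lines under PLX4720 and 3.16, 26.7 and 7.38 CPM under DMSO, with 0.0817 to 1.44 CPM in the primary lines under the inhibitor. The change was log2 3.85 ± 0.50 (SE, adjusted p = 0.00868) and was lost without T3 (adjusted p = 0.274). Of 26 collagens tested, 10 were higher and 4 lower in the metastasis lines. The gap was called as widened for 7 and as narrowed for none, with 13 upward and 2 downward at an unadjusted p under 0.05 and 9 and 0 by DESeq2. Leaving out 1 line gave 8 to 10 higher and 0 to 4 lower calls under PLX4720 and 2 to 10 upward calls in the difference.

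Around the collagens, the small proteoglycan asporin widened whichever line was left out. Aspn (chr13:49544443-49567557), which binds collagen and TGF-β, stood at 0.183, 0.109 and 0.187 CPM in the primary and 240.4, 199 and 324 CPM in the metastasis lines under PLX4720, and at 0.279, 0.07896 and 0.176 and 4.59, 4.14 and 8.25 CPM under DMSO. The primary lines stayed near 0 under both treatments while every metastasis line rose (log2 5.52 (adjusted p = 2.04e-07)). The gap was log2 10.63 ± 0.39 (SE, adjusted p = 0.00013), wider than under DMSO by log2 5.66 ± 0.42 (SE, adjusted p = 0.002). The protease Adamts5, which cleaves cartilage proteoglycan, was at a similar low level at both sites under DMSO (0.251, 1.58 and 1.61 and 0.627, 2.74 and 0.436 CPM), and had a called gap under PLX4720 alone (0.627, 2.23 and 3.18 and 34.7, 71.3 and 44.4 CPM, log2 4.67 ± 0.68 (SE, adjusted p = 0.00849)). That change was log2 4.69 ± 0.47 (SE, adjusted p = 0.00361).

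Other matrix genes had a called gap under PLX4720 and no called change. Loxl1, which crosslinks elastin, stood at 0.314, 0.626 and 0.936 against 237, 452 and 207 CPM (log2 8.93 ± 0.62 (SE, adjusted p = 0.000943)), and Ltbp2, a microfibril protein related to the binders of latent TGF-β, at 0.3398, 0.218 and 0.348 against 565, 637 and 339.6 CPM (log2 10.74 ± 0.44 (SE, adjusted p = 0.000199)). Neither change between treatments was called (adjusted p = 0.169 and 0.5), which does not show that the gap stayed constant. Of 32 matrix glycoproteins and crosslinking enzymes tested, 11 were higher and 3 lower in the metastasis lines under PLX4720. Lama5 and Lamb3, laminin chains of epithelial basement membranes, were among the lower ones. Itgb4, the integrin that binds such laminins, was also lower, at 65.7, 36.5 and 83.3 against 3.67, 3.15 and 2.41 CPM (log2 -4.30 ± 0.40 (SE, adjusted p = 0.0022)), and kept its gap.

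Contractile genes were a further group with higher calls in the metastasis lines. Tagln, an actin-binding protein of smooth muscle and myofibroblasts, stood at 2.01, 0.817 and 3.26 CPM in the primary and 51.5, 287 and 77.8 CPM in the metastasis lines (log2 6.13 ± 0.94 (SE, adjusted p = 0.00984)), with M2 the highest. Lmod1, a leiomodin that nucleates actin filaments, stood at 0.131, 0.109 and 0.214 against 7.89, 14.7 and 6.37 CPM under PLX4720 (log2 5.99 ± 0.60 (SE, adjusted p = 0.00279)). Under DMSO, Lmod1 was at 0.0557, 0.07896 and 0.0756 and 0.179, 0.178 and 0.02904 CPM, and the change in its gap (log2 5.13 ± 0.79 (SE, adjusted p = 0.0154)) was lost without T1, T2 or T3 (adjusted p = 0.0562 to 0.0846). Acta2, smooth muscle actin, did not pass the test under PLX4720, at 42.1, 0.0545 and 3.26 against 1940, 3386 and 1656 CPM (log2 7.29, adjusted p = 0.059), where T2 had almost none and T1 much more than the other primary lines. Of 17 contractile genes tested, 7 were higher and none lower under PLX4720, against 3 of 14 under DMSO. These counts cover different genes, since each treatment was filtered on its own, and Lmod1 did not pass the filter under DMSO. In the difference between treatments 3 contractile genes were called upward, and 0 to 7 when 1 line was left out.

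The interferon response had 13 of 39 members tested in the widened class, beside 1.26% over all genes tested. By count this was more than any other list, and no list had more members tested for the change. The genes whose promoters are printed here carry the core of the interferon-stimulated response element, GAAA, any 2 bases and GAAA, within the 250 bases before the RefSeq start (GRCm38.p6). Sequences run 5′ to 3′ along the gene's strand, and capitals mark the core on either strand (TTTC, any 2 bases, TTTC on the reverse). Igtp is on the plus strand, with the window at chr11:58199306-58199555 and 1 match 34 bases before the start. Ifit3 is on the plus strand, with the window at chr19:34583279-34583528 and matches at 156 and 122 bases. Isg15 is on the minus strand, with the window at chr4:156200819-156201068 and 3 overlapping matches at 78, 72 and 66 bases.
Igtp: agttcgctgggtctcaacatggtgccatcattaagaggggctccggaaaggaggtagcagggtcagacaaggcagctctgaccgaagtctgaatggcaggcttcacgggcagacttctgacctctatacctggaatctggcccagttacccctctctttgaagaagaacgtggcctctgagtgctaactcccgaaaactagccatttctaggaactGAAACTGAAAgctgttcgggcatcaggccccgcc
Ifit3: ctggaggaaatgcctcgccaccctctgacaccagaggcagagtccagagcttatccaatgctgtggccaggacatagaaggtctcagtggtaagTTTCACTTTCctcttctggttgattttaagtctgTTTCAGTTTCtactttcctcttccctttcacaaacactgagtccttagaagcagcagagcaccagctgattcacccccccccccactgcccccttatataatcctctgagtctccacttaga
Isg15: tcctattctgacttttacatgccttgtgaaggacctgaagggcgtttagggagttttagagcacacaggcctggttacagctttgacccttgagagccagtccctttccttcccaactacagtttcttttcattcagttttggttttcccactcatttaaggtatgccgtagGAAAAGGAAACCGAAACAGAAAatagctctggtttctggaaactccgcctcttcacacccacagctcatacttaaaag

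In windows from 250 bases before to 50 bases after the start, that core was found on either strand for 17 of 27 interferon response genes with a promoter in the table (63%), and for 11 of the 17 of them called higher (64.7%). Over all genes it was found for 1079 of 27025 (3.99%), and for 1 of 26 epithelial genes, 0 of 21 collagens and 0 of 26 Hox and positional genes. This motif too was chosen with the values of the lists known.

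Igtp, an interferon-inducible GTPase that acts on intracellular vacuoles, stood at 0.993, 0.899 and 1.04 CPM in T1, T2 and T3 and 41.98, 5.52 and 114 CPM in M1, M2 and M3 under PLX4720. Under DMSO it stood at 0.696, 0.763 and 0.706 and 7.01, 1.28 and 19.9 CPM. All 3 metastasis lines rose (log2 2.44 (adjusted p = 2.18e-05)), M3 the highest and M2 the lowest under either treatment, and the primary lines stayed near 1 CPM. The widening was log2 2.00 ± 0.23 (SE, adjusted p = 0.00562) and held whichever line was left out, whereas the gap under PLX4720 (log2 5.81 ± 1.10 (SE, adjusted p = 0.0189)) was lost without T1, T2 or T3 (adjusted p = 0.0628 to 0.0727).

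Gbp2 (chr3:142620602-142638008), a guanylate-binding protein, stood at 1.18, 0.4903 and 0.829 CPM in the primary and 200.5, 68.2 and 250.4 CPM in the metastasis lines under PLX4720, and at 0.724, 0.07896 and 0.6803 and 40.1, 9.04 and 36.7 CPM under DMSO. Its gap of log2 7.71 ± 0.69 (SE, adjusted p = 0.00187) held in all fits, and the widening (log2 1.87 ± 0.38 (SE, adjusted p = 0.0391)) was lost without T1, T3, M2 or M3 (adjusted p = 0.0972 to 0.217). Ifit3, which binds viral RNA complexes, stood at 0.261, 0.4903 and 3.42 against 66.3, 11.5 and 454 CPM under PLX4720 and 0.279, 0.395 and 1.86 against 13.2, 1.22 and 51.6 CPM under DMSO. Its gap (log2 7.02 ± 1.77 (SE, adjusted p = 0.047)) was lost without T1, T2, T3, M1 or M3 (adjusted p = 0.0576 to 0.14), and its widening (log2 2.24 ± 0.35 (SE, adjusted p = 0.0154)) without T1, T2 or T3 (adjusted p = 0.0509 to 0.07). Isg15, a ubiquitin-like modifier, stood at 0.287, 0.163 and 0.267 against 44.1, 11.5 and 219 CPM (log2 8.59 ± 1.33 (SE, adjusted p = 0.0103)), and the change in its gap was not called (log2 1.85, adjusted p = 0.23).

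The list as a whole was higher in the metastasis lines and uneven among them. Of 38 interferon response genes tested, 24 were higher under PLX4720 and none lower, with a median of log2 5.78, against 14 of 37 and log2 3.77 under DMSO. The gap was called as changed upward for 15 of 39, of which 13 widened and 2, Oasl1 and Irgm1, turned. Both turned calls were lost without T1, T2, T3 or M3, and that of Oasl1 also without M2. The median change under PLX4720 was log2 0.45 in the primary and 1.79 in the metastasis lines. M3 was the highest metastasis line in 23 of the 24 called genes and M2 the lowest in all 24. The count of higher genes was 9, 7 and 9 without T1, T2 and T3, and 15, 26 and 15 without M1, M2 and M3. The upward calls in the difference between treatments were 3, 4 and 5 without T1, T2 and T3, and 19, 11 and 5 without M1, M2 and M3.

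Genes that process antigen for MHC class I, which interferons also induce, shared most of the pattern of lines. Psmb8, an immunoproteasome subunit, stood at 0.209, 0.0545 and 0.0802 CPM in the primary and 11.04, 9.34 and 18.4 CPM in the metastasis lines (log2 6.80 ± 0.71 (SE, adjusted p = 0.00304)). The peptide transporter subunit Tap2 stood at 0.967, 0.191 and 0.1604 against 10.9, 19.9 and 25.9 CPM (log2 5.45 ± 0.89 (SE, adjusted p = 0.012)). Beta-2 microglobulin (B2m), the light chain of MHC class I, was well expressed at both sites, at 244, 256 and 146 against 415, 324 and 1337 CPM, and its gap was not called (log2 1.72, adjusted p = 0.112). Of 18 antigen presentation genes tested, 7 were higher and none lower. M3 was the highest metastasis line in all 7, and the lowest was M2 in 6 and M1 in 1. Leaving out 1 line gave 4 to 7.

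Of the 209 widened genes, 82 had a fitted gap under PLX4720 on the lower side in the metastasis lines. A gap under PLX4720 was called for 114 of the 209, in either direction. Pls1 (chr9:95752642-95845311), the fimbrin of intestinal and other microvilli, stood at 148, 69.9 and 109 CPM in the primary and 1.83, 0.182 and 2.24 CPM in the metastasis lines under PLX4720, and at 146, 55.9 and 85.6 and 12.7, 1.19 and 17.5 CPM under DMSO. Every metastasis line fell (log2 -2.86 (adjusted p = 1.17e-05)) and the change in the gap was log2 -3.10 ± 0.16 (SE, adjusted p = 0.000313). The chloride channel Ano1 stood at 525, 448 and 592 against 44.6, 8.55 and 45.7 CPM under PLX4720 and 438, 318 and 480.2 against 149, 52.2 and 225 CPM under DMSO, a change of log2 -2.56 ± 0.21 (SE, adjusted p = 0.00248). Pmaip1, the BH3-only protein NOXA that promotes apoptosis, rose in the primary lines (log2 0.85 (adjusted p = 0.0258)) and fell in the metastasis lines (log2 -1.38 (adjusted p = 0.00576)). Its levels were 63.2, 26.7 and 25.3 against 1.09, 0.515 and 0.698 CPM under PLX4720, and the change in its gap was log2 -2.23 ± 0.31 (SE, adjusted p = 0.0103).

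For some genes the inhibitor opened a gap that DMSO did not show. Il33, an alarmin cytokine, stood at 194, 110.1 and 138 CPM in the primary and 224, 89.5 and 38.7 CPM in the metastasis lines under DMSO, where the sites overlapped. Under PLX4720 it stood at 118, 101 and 135 and 29.6, 13.5 and 2.91 CPM, without overlap, and the change was log2 -2.79 ± 0.27 (SE, adjusted p = 0.00298). The gap under PLX4720 itself (log2 -2.93 ± 0.75 (SE, adjusted p = 0.0495)) was lost without T1, T2, T3 or M2 (adjusted p = 0.1 to 0.159). Wnt7b (chr15:85535439-85581821), a canonical Wnt ligand, stood at 133, 1.34 and 23.99 CPM in M1, M2 and M3 under DMSO and 6.54, 0.0607 and 0.349 CPM under PLX4720, while the primary lines stood at 14.04, 119 and 72.3 and 17.9, 120.3 and 86.5 CPM. Each metastasis line lost most of its level, the change was log2 -5.00 ± 0.34 (SE, adjusted p = 0.00134), and the gap under PLX4720 was not called (log2 -5.01, adjusted p = 0.0985).

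Fgfr3 (chr5:33721674-33737068) widened through the primary lines. It stood at 57.5, 61.6 and 27.01 CPM in the primary lines under PLX4720 against 11.5, 13.6 and 7.68 CPM under DMSO, a rise of log2 2.11 (adjusted p = 0.000966), and at 0.329, 0.394 and 0.204 CPM in the metastasis lines under PLX4720. The gap was log2 -7.26 ± 0.52 (SE, adjusted p = 0.00102). The widening (log2 -2.31 ± 0.38 (SE, adjusted p = 0.0181)) was lost without T1, T2 or M3 (adjusted p = 0.0509 to 0.0611).

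Of the 159 genes whose gap narrowed, 105 had a fitted gap under PLX4720 on the lower side in the metastasis lines. A gap under PLX4720 was called for 35 of the 159, in either direction. Krt7, a keratin of bile ducts, stood at 1.23, 2.52 and 3.897 CPM in the metastasis lines under PLX4720 and 0.149, 0.0595 and 0 CPM under DMSO, while the primary lines stood at 241, 17.98 and 156 and 225, 11.7 and 140.2 CPM. The gap shrank by log2 4.83 ± 0.59 (SE, adjusted p = 0.00692) and remained log2 -5.73 ± 1.05 (SE, adjusted p = 0.017), a call lost without M1, M2 or M3 (adjusted p = 0.053 to 0.0763). Akap12 (chr10:4266329-4359468), a scaffold for protein kinases A and C, rose at both sites, to 187, 248 and 215 CPM in the primary and 55.7, 21.4 and 18.6 CPM in the metastasis lines from 123, 152 and 115 and 7.43, 3.24 and 3.69 CPM. Its gap narrowed from log2 -4.75 to -2.75, a change of log2 1.93 ± 0.17 (SE, adjusted p = 0.00248), and the remaining gap was lost without M2 (adjusted p = 0.0505).

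The RNA-binding protein Igf2bp1 (chr11:95957163-96005940), an oncofetal gene of liver cancer, stood at 0.876, 4.49 and 9.63 CPM in the metastasis lines under PLX4720 and 0.209, 0.446 and 0.929 CPM under DMSO, and at 12.5, 24.00 and 63.3 CPM in the primary lines under PLX4720. All 3 metastasis lines rose, and a gap called under DMSO (log2 -5.86 ± 0.84 (SE, adjusted p = 0.009)) was no longer called under PLX4720 (log2 -2.70, adjusted p = 0.128). The change was log2 3.11 ± 0.29 (SE, adjusted p = 0.00298). The beta-tubulin Tubb2b narrowed by log2 1.23 ± 0.12 (SE, adjusted p = 0.00298), from 4.33, 3.24 and 3.75 to 14.8, 10.9 and 12.8 CPM in the metastasis lines. Smad6, an inhibitor of BMP signalling, rose in them from 10.3, 8.301 and 4.24 to 37.9, 38.6 and 30.1 CPM, under 108, 93.2 and 89.98 CPM in the primary lines, and narrowed by log2 1.70 ± 0.23 (SE, adjusted p = 0.0103).

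The gap also narrowed from above, where genes higher in the metastasis lines fell. Cytip, a regulator of integrin adhesion in leukocytes, stood at 97.1, 41.6 and 52.1 CPM in M1, M2 and M3 under DMSO and 11.99, 2.97 and 4.68 CPM under PLX4720, while the primary lines stood at 0.752, 0.132 and 0.0252 and 3.74, 0.136 and 0.267 CPM. Its gap changed by log2 -5.49 ± 0.45 (SE, adjusted p = 0.00248). Sh2d5, an SH2 domain adaptor, fell from 55.7, 40.05 and 69.9 to 3.15, 1.46 and 2.94 CPM in the metastasis lines and from 4.902, 4.42 and 17.9 to 1.15, 1.52 and 5.32 CPM in the primary lines. A gap called under DMSO (log2 2.61 ± 0.62 (SE, adjusted p = 0.0417)) was at log2 -0.06 under PLX4720 (adjusted p = 0.968), a change of log2 -2.70 ± 0.23 (SE, adjusted p = 0.00248). The class of Sh2d5 follows the fit of 12 libraries, where the gap went from log2 2.88 to 0.19, and with a gap this near 0 its sign is not settled. Chic1 narrowed by log2 -1.57 ± 0.14 (SE, adjusted p = 0.00298), from 102, 122 and 125 to 26.1, 30.99 and 26.5 CPM in the metastasis lines.

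Of the 119 genes whose fitted gap turned, 8 had a called gap under PLX4720, among them Bmp2, and 5 under DMSO. Bmp2 (chr2:133552159-133562885), a bone morphogenetic protein, stood at 23.1, 23.2 and 54.02 CPM in the primary and 25.7, 78.3 and 90.98 CPM in the metastasis lines under DMSO. Under PLX4720 it stood at 44.8, 57.9 and 58.9 and 6.74, 6.09 and 3.93 CPM, so that every metastasis line fell below every primary line (log2 -3.24 ± 0.30 (SE, adjusted p = 0.00216)). The change was log2 -4.17 ± 0.60 (SE, adjusted p = 0.0117). Tissue factor (F3), which starts coagulation, went the other way: it rose in the metastasis lines from 37.96, 33.98 and 22.1 to 169, 136 and 111 CPM, while the primary lines stood at 33.95, 93.8 and 135 and 29.1, 39.5 and 133 CPM, a change of log2 2.65 ± 0.29 (SE, adjusted p = 0.00467). The gap in F3 was not called under either treatment (adjusted p = 0.295 under PLX4720 and 0.125 under DMSO).

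Csrp1, a LIM protein of the actin cytoskeleton, rose at both sites and more in the metastasis lines, to 673, 509.9 and 560.0 CPM from 148, 106 and 84.01 CPM, against 312, 176 and 329 from 154, 111 and 182 CPM in the primary lines. Its change was log2 1.55 ± 0.17 (SE, adjusted p = 0.00476), while its gap under PLX4720 (log2 1.12 ± 0.28 (SE, adjusted p = 0.0472)) was lost without any 1 of the 6 lines (adjusted p = 0.0637 to 0.113). The YAP target Ccn1 turned by log2 1.24 ± 0.16 (SE, adjusted p = 0.00835) (adjusted p = 0.0537 without T2), and Amotl2, another, by log2 1.38 ± 0.16 (SE, adjusted p = 0.00664). Of the cholesterol synthesis list, 4 genes had a called change, all upward, with Hmgcs1, Mvk and Lss turned and Mvd narrowed, and 0 to 6 were called when 1 line was left out. Each of the 4 calls was lost without T1 or T2, and others without T3 (Hmgcs1, Mvk and Mvd), M2 (Hmgcs1, Mvk and Lss) or M3 (Hmgcs1, Lss and Mvd). Mvd stood at 26.5, 30.9 and 29.2 CPM in the metastasis lines under DMSO and 51.8, 42.5 and 57.9 CPM under PLX4720, close to 55.2, 85.96 and 56.7 CPM in the primary lines. Under PLX4720 no gene of that list of 24 had a gap called by edgeR, 1 higher and 3 lower had an unadjusted p under 0.05 and DESeq2 called 1, while under DMSO edgeR called 5 lower in the metastasis lines.

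**Figure D5:**
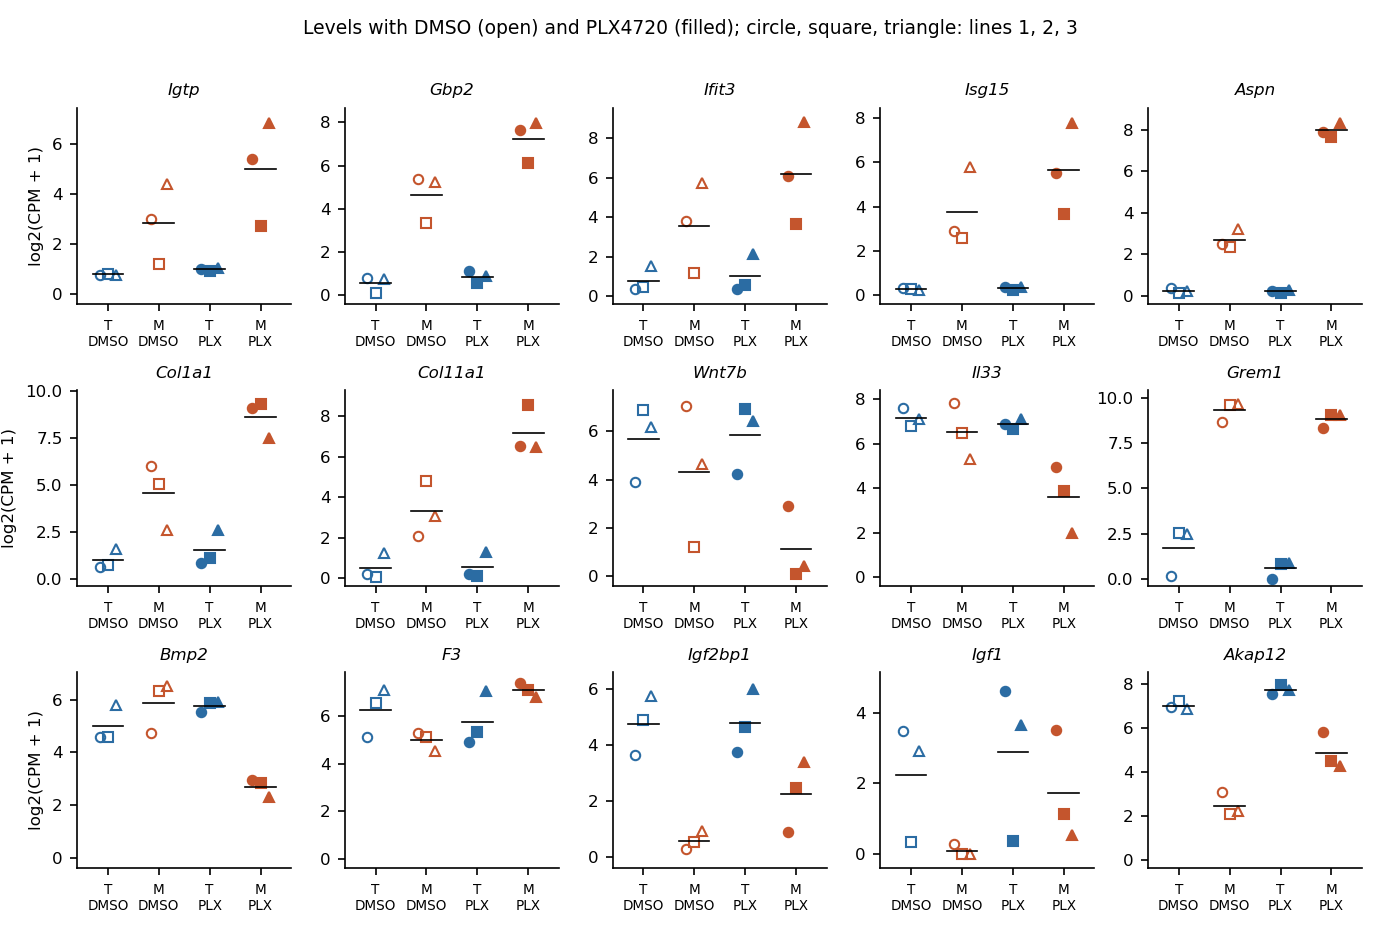
Level, log2(CPM + 1), of 15 genes in each line under DMSO (open) and PLX4720 (filled), primary lines beside metastasis lines, 1 panel per gene with its own y scale. Aspn, Igtp and Gbp2 rise in the metastasis lines under PLX4720, Wnt7b and Il33 fall there, and Bmp2 passes from overlapping levels to below the primary lines.

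Some readouts of ERK differed between the sites. Dusp6, a phosphatase that ERK induces and that switches ERK off, stood at 147, 149.9 and 183 CPM in the primary and 70.9, 39.7 and 36.7 CPM in the metastasis lines under PLX4720, and at 347, 273 and 285 and 167, 194 and 185 CPM under DMSO. It fell at both sites, and every metastasis line stood below every primary line (log2 -1.69 ± 0.29 (SE, adjusted p = 0.0137)), a call lost without M2 (adjusted p = 0.0598). The gap under DMSO was log2 -0.71 ± 0.17 (SE, adjusted p = 0.0398), and the change was not called (log2 -1.04, adjusted p = 0.11). Etv4 fell at both sites (log2 -2.27 (adjusted p = 0.00318) in the primary and log2 -2.02 (adjusted p = 0.000539) in the metastasis lines), to 14.3, 16.1 and 16.3 and 55.1, 24.9 and 22.2 CPM, with no called gap (adjusted p = 0.107). Etv1, its relative, was near 0 in the primary lines, at 0.0261, 0.0545 and 0 CPM against 14.2, 19.9 and 4.83 CPM (log2 8.77 ± 1.05 (SE, adjusted p = 0.00496)).

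Of 20 ERK output genes tested, 1 was higher and 5 were lower in the metastasis lines under PLX4720, against 1 and 2 under DMSO, with a median of log2 -0.50. The lower calls stand beside 7.88% over all genes and the higher one beside 5.62%. The lower calls numbered 0 to 3 with 1 line left out. Braf itself stood at 31.2, 24.2 and 27.7 against 32.2, 37.3 and 29.02 CPM (log2 0.27, adjusted p = 0.505). Mras, a RAS relative that joins the phosphatase complex activating RAF, rose in the primary lines by log2 1.30 (adjusted p = 0.0036), to 135, 63.2 and 38.2 CPM from 57.9, 31.8 and 11.5 CPM. The metastasis lines were at 67.4, 49.7 and 47.4 CPM, from 72.3, 59.6 and 42.4 CPM (log2 -0.07 (adjusted p = 0.778)). Its gap turned by log2 -1.37 ± 0.20 (SE, adjusted p = 0.0122).

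Tgfb2, a TGF-β ligand that the series' title names, had no called gap. It stood at 18.1, 12.8 and 17.4 CPM in T1, T2 and T3 and 24.9, 19.5 and 19.9 CPM in M1, M2 and M3 under PLX4720, and at 2.65, 2.895 and 2.04 and 2.87, 2.68 and 2.93 CPM under DMSO. All 6 lines were higher under the inhibitor, and the metastasis lines lay slightly above the primary ones without overlap. The gap was log2 0.44 ± 0.26 (SE, adjusted p = 0.345), and its change between treatments log2 0.25 with a 95% interval of -0.35 to 0.85 (adjusted p = 0.768). Neither Tgfb1 (log2 -0.94, adjusted p = 0.532) nor Tgfb3 (log2 1.00, adjusted p = 0.565) had a called gap, and T2 stood apart in Tgfb3 with 4.28 CPM against 82.03 to 123 CPM in the metastasis lines.

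Among other genes of the family, both ligands, such as Bmp2, and modulators had called gaps. Grem1 (chr2:113746164-113758646), a secreted BMP antagonist, stood at 0, 0.7899 and 0.856 CPM in the primary and 328, 543 and 527 CPM in the metastasis lines (log2 9.76 ± 1.20 (SE, adjusted p = 0.00522)), and widened by log2 2.04 ± 0.21 (SE, adjusted p = 0.00361) as it fell in the primary lines (log2 -2.54 (adjusted p = 0.000777)) and less in the metastasis lines (log2 -0.49 (adjusted p = 0.00999)). Bambi, a decoy receptor, stood at 1.59, 0.218 and 0.615 against 34.9, 15.8 and 57.1 CPM (log2 5.49 ± 0.90 (SE, adjusted p = 0.0119)) and kept its gap. The co-receptor Tgfbr3 stood at 2.35, 0.4903 and 5.72 against 185, 118 and 60.7 CPM (log2 5.42 ± 0.96 (SE, adjusted p = 0.0148)), a call lost without T1 (adjusted p = 0.0552). Of 32 ligands, receptors and activators tested, 6 were higher and 5 lower. Of 28 targets and SMADs, 3 were higher and 4 lower under PLX4720, and 7 had a called upward change of the gap, with 1 to 7 when 1 line was left out, beside 5.62%, 7.88% and 1.85% over all genes.

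Few cell cycle genes had a called gap under the inhibitor. Of 25 S phase genes tested, 1 was higher in the metastasis lines, Ccne1 (cyclin E1), at 39.05, 25.6 and 47.2 against 15.7, 15.2 and 16.3 CPM (log2 1.27 ± 0.28 (SE, adjusted p = 0.0323)), a call lost without T1, T2, T3, M1 or M3. None of 24 genes of G2 and mitosis was called by edgeR, with 2 higher and 1 lower at an unadjusted p under 0.05 and 1 higher by DESeq2. Mki67, the proliferation marker, stood at 501, 384 and 618 CPM in the primary and 422, 573 and 325 CPM in the metastasis lines (log2 -0.16, adjusted p = 0.781). Of 25 CDK inhibitor and p53 target genes, 4 were lower, among them Perp, a p53 target of desmosomes, at 77.5, 81.1 and 155 against 0.246, 0.09097 and 0 CPM (log2 -9.77 ± 0.93 (SE, adjusted p = 0.00228)).

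The genes named in the design did not separate the sites. Trp53 transcripts stood at 8.55, 4.09 and 4.84 CPM in the primary and 4.19, 3.58 and 2.79 CPM in the metastasis lines under PLX4720 (log2 -0.70, adjusted p = 0.356), and a line with intact p53 was not analysed here. Cdkn2a (chr4:89274471-89294653) stood at 81.9, 119 and 175 CPM in T1, T2 and T3 and 0.466, 0.182 and 254 CPM in M1, M2 and M3. M1 and M2 were near 0 and M3 was the highest of the 6, so the difference between sites was not called (log2 -0.52, adjusted p = 0.904). The neighbouring inhibitor Cdkn2b had the same pattern, with 60.6, 56.1 and 56.6 CPM in the primary and 0.0822, 0.0607 and 75.8 CPM in the metastasis lines. M1 and M2 thus stood apart from M3 at this locus.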

How the data were processed

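RNA of 6 mouse cell lines was sequenced after 2 µM PLX4720 or DMSO for 48 h, 1 library per line and treatment, as stranded total RNA with ribosomal RNA removed, per the labels' protocols. Per the file headers, the authors counted fragments with featureCounts 1.5.2 over exons of Ensembl 84 (GRCm38), both ends mapped and no strand option set, and deposited unnormalized counts. Overlapping genes on opposite strands can therefore not be told apart, and near-identical copies of a gene are uncertain. No aligner is named in the sources used here. A symbol was found for 47224 of the 47729 genes listed.

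The tests used edgeR 4.0.16 in R 4.3.3: filterByExpr, TMM scaling, the quasi-likelihood test and Benjamini-Hochberg adjustment over all genes tested, at a threshold of 0.05. Sites were compared on the 6 libraries of a treatment with no block (4 residual degrees of freedom), beyond 2-fold with glmTreat. The change of the gap, and the effect of PLX4720 in each site, came from 1 fit of the 12 libraries with the line as block (4 residual degrees of freedom). The block comes from the labels, and both libraries of a line deviated together (correlations 0.839 to 0.923). CPM values carry the TMM factors. SEs are the absolute log2 value divided by the root of F and are approximate at low counts. Against a site at 0, a fold is a lower bound from 3 fragments over its 3 libraries, which covers counting error only. The fits were also run on simulated counts, drawn with the dispersions of the main fits. Those counts held no level shared by both libraries of a line, so they cannot test the block by line. No 2 libraries of a PLX4720 group were duplicates (chi-square per degree of freedom of 147 or more).

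Members, lists, motifs and genes were chosen with earlier results of these data known. Named genes are those always taken (Tgfb1, Tgfb2, Tgfb3, Trp53, Cdkn2a, Braf), the 10 largest differences in each direction with a mean log2 CPM of at least 3, the 8 smallest p in each direction with at least 30 fragments at the lower site, the 8 smallest p of each class of change with a mean log2 CPM of at least 1, the 8 largest kept gaps, and up to 4 genes with the smallest p per list. Other members of the lists that the text names were chosen after their values were seen, as were those printed among the rest. Promoters were matched by symbol to RefSeq (GRCm38.p6). The alternatives were other scalings, filters, DESeq2 1.42.0, blocks and leaving out each line. Some genes that this rule names are not reported here.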

Additional observations from a re-analysis of the deposited data

Results flagged for a closer look

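A change of the gap between sites was tested as the difference of the PLX4720 effect in the metastasis lines from that in the primary lines. Of the genes named by the smallest p of each class, 24 are given here with that difference, on the log2 scale. Among the widened genes, Aspn (5.66), S1pr1 (4.54) and Parp14 (1.41) moved up in the metastasis lines relative to the primary lines. Wnt7b (-5.00), Pls1 (-3.10), Il33 (-2.79), Ano1 (-2.56) and Chn1 (-2.20) moved down.

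S1pr1, the receptor for sphingosine-1-phosphate, had not been described above. It fell in the primary lines, from 12.1, 0.263 and 0.529 to 2.98, 0.163 and 0.0267 CPM, and rose in the metastasis lines, from 7.34, 15.2 and 6.74 to 55.3, 81.4 and 31.5 CPM, so that the sites moved in opposite directions. Chn1, a RAC GTPase-activating protein, fell in the metastasis lines from 22.5, 9.46 and 1.66 to 7.15, 2.67 and 0.291 CPM. Parp14, an ADP-ribosyltransferase induced by interferon, rose at both sites, to 13.6, 16.1 and 1.76 and 55.04, 36.8 and 274 CPM. The gap under PLX4720 itself was not called for S1pr1 (log2 5.75), Chn1 (log2 -3.7) or Parp14 (log2 3.57). For S1pr1 the sites also overlapped under DMSO.

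Among the narrowed genes, the difference was Igf1 4.91, Igf2bp1 3.11, Tspan2 2.44, Akap12 1.93, Tubb2b 1.23, Chic1 -1.57, Sh2d5 -2.70 and Cytip -5.49. Igf1, the growth factor of the growth hormone axis, rose from 0.209, 0 and 0 to 10.5, 1.18 and 0.465 CPM in M1, M2 and M3, and T2 stood apart among the primary lines with 0.300 CPM under PLX4720 against 23.4 in T1 and 11.5 in T3. Among the turned genes it was Aoc3 7.12, Unc5c 2.90, F3 2.65, Cxcl1 2.30, Acss2 1.57, Csrp1 1.55, F2r 1.34 and Trbc2 -4.47. Aoc3, an amine oxidase of smooth muscle and fat cells, stood at 0.0784, 0.0272 and 0.1604 CPM in the primary and 7.58, 16.1 and 2.41 CPM in the metastasis lines under PLX4720, and at 0.0263 to 0.227 and 0.02904 to 0.178 CPM under DMSO. The chemokine Cxcl1 rose in the metastasis lines from 3.55, 4.17 and 5.23 to 19.96, 20.9 and 37.1 CPM, within the spread of the primary lines (5.41, 73.2 and 22.8 CPM). The receptor of thrombin, F2r, fell in the primary lines (log2 -0.86 (adjusted p = 0.00418)) and rose in the metastasis lines (log2 0.48 (adjusted p = 0.00955)). Each of these 24 calls held whichever line was left out, and none was called without the block by line.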

How the results depend on the processing

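With RLE or upper-quartile scaling, a stricter filter or no mitochondrial genes, every count of calls stayed within 1.5 times, and so did those of the gap under either treatment with no filter or in 1 fit of all 12 libraries. DESeq2 called more: 3177 genes in the PLX4720 gap, 2989 in the DMSO gap and 920 in the change of the gap, with 410 widened, 278 narrowed and 232 turned. With no filter on low counts the change of the gap had 996 calls, 421 widened, 328 narrowed and 247 turned. A glmTreat threshold of log2 2 left 789 genes under PLX4720. Leaving out 1 line gave 1097 to 1712 calls under PLX4720 (lowest without M2), 649 to 1047 beyond 2-fold and 901 to 1595 under DMSO. For the change of the gap it gave 122 to 798 calls, 52 to 346 widened, 45 to 236 narrowed and 25 to 216 turned. The lowest of each came without T2 and the highest without M1; without T1, T3, M2 and M3 the calls were 160, 243, 257 and 295. The cause of these shifts was not tested, though each such fit has 1 line fewer. Of the calls under PLX4720, 41.6% were higher in the metastasis lines, and 31.3% without T2. Of the changes, 62.8% were upward, and 49.1% without M1.

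The labels give both sites the replicate numbers 1 to 3. Deviations from the site mean correlated at -0.049 to 0.012 for lines with the same number and at -0.0436 to 0.0476 for the others. With 3 lines per site, this cannot tell whether lines of the same number share an origin. With that number as a replicate block, 1312 genes were called under PLX4720 and 1051 under DMSO. Without the line as a block, the change of the gap had 0 calls, with 0 widened, 0 narrowed and 0 turned (279 genes at an unadjusted p under 0.05, smallest adjusted p 0.0625). For the genes named by the rule, 1039 of 1206 results of the PLX4720 gap with a line left out kept their side of the threshold. Each result is 1 gene in 1 such fit, and most of these genes were chosen for a small p or a large difference. Over all calls, 827 of 2061 (40.1%) held in all 6 fits. No direction reversed in any called result of the named genes under these settings. Depth limits genes near 0 at 1 site, where the interval of a change is wide.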
